A study of Mus musculus with 48 samples.

Results

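Neurotrophins are secreted growth factors that keep neurons alive and shape their synapses, and they act through 2 kinds of receptor. Bdnf (brain-derived neurotrophic factor) binds the tyrosine kinase receptor TrkB, encoded by Ntrk2, and Ntf3 (neurotrophin 3) binds mainly TrkC, encoded by Ntrk3. Ngfr encodes p75, a receptor without a kinase that binds every neurotrophin and is also bound by the unprocessed pro-forms. In the olivocerebellar circuit, neurons of the inferior olive send climbing fibers to Purkinje cells of the cerebellum, and both receptors and ligands of this family are known to be made on either side of that connection. The RNA of these 5 genes was followed here in 48 libraries, as the 5 of 23731 gene symbols whose name matched a member, with each member found in 1 row of each of the 8 deposited tables.

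The study set spinocerebellar ataxia type 1 (SCA1) mouse models against wild-type (WT) mice in the inferior olive (IO) and cerebellum (CB). In the Atxn1 154Q/2Q knockin (KI) model, on a C57BL/6J background, 1 allele of the mouse gene carried the expanded glutamine tract and was expressed wherever Atxn1 is. In the ATXN1-82Q transgenic (Tg) model, on FVB/NJ, a human ATXN1 with 82 glutamines was driven by the Pcp2 promoter, which in the brain is active mainly in Purkinje cells, so that inferior olive neurons of these mice were not meant to make the expanded protein. Mutant and WT males were taken at 5 and 12 weeks of age, 3 mice a group and 16 groups in all. Strain and model cannot be told apart. Levels are FPKM, fragment counts scaled by transcript length and library size, which allows genes to be compared with each other within a library. Each table of 6 libraries (1 model, tissue and age) was normalized on its own, so genotypes were compared within a table, and values of different tables are set side by side only as a description.

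The targeted gene was checked first. Atxn1 was 6.90 to 8.01 FPKM in the KI inferior olive against 5.81 to 6.39 FPKM in WT at 12 weeks, and 6.97 to 7.13 against 5.80 to 6.06 FPKM at 5 weeks, so that the 2 genotypes did not overlap at either age. In the KI cerebellum it was 9.53 to 10.6 FPKM against 9.43 to 9.51 FPKM in WT at 12 weeks, and overlapped at 5 weeks (8.36 to 12.0 against 9.81 to 11.3 FPKM). No Atxn1 change was called in any table (limma adjusted p = 0.649 and 0.149 in the KI olive at 5 and 12 weeks). Human ATXN1 is not a row of the mouse annotation, so the transgene was not measured on its own. Whether its reads were counted in part as mouse Atxn1 was not tested. In the 5-week Tg cerebellum Atxn1 was 12.0 to 12.6 FPKM in mutants and 10.1 to 11.4 FPKM in WT, without overlap (limma adjusted p = 0.0905). In the 12-week Tg cerebellum and in the Tg olive the genotypes overlapped. Pcp2, the Purkinje gene whose promoter drives it, was 219 to 258 FPKM in the Tg cerebellum against 565 to 688 FPKM in WT at 12 weeks. The labelled tissues were checked by Htr5b of inferior olive neurons, which was at 2.25 to 9.55 FPKM in the olive and at most 0.322 FPKM in the cerebellum. Of the 24 olive libraries, 1 held more cerebellar RNA than the others. This was Tg mutant replicate 2 at 5 weeks, with Pcp2 at 22.0 FPKM and Gabra6 of granule cells at 15.3 FPKM. Of the cerebellar libraries, WT replicate 1 of the 12-week KI comparison stood out for hindbrain neuron markers. They summed to 5.78 FPKM, against 0.126 and 0.060 FPKM in its WT mates. Its granule cell markers summed to 1165 FPKM, against 1709 and 1618 FPKM. Among these WT libraries it held the least Ntf3, Bdnf and Ntrk3 and the most Ntrk2 and Ngfr. The part of dissection in those values was not tested. Total counts are unknown. Relative depth read from the lowest values differed by 1.15- to 1.96-fold between the deepest and the shallowest library of a table, and 12439 to 13063 genes reached 1 FPKM in a library.

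**Figure D1:**
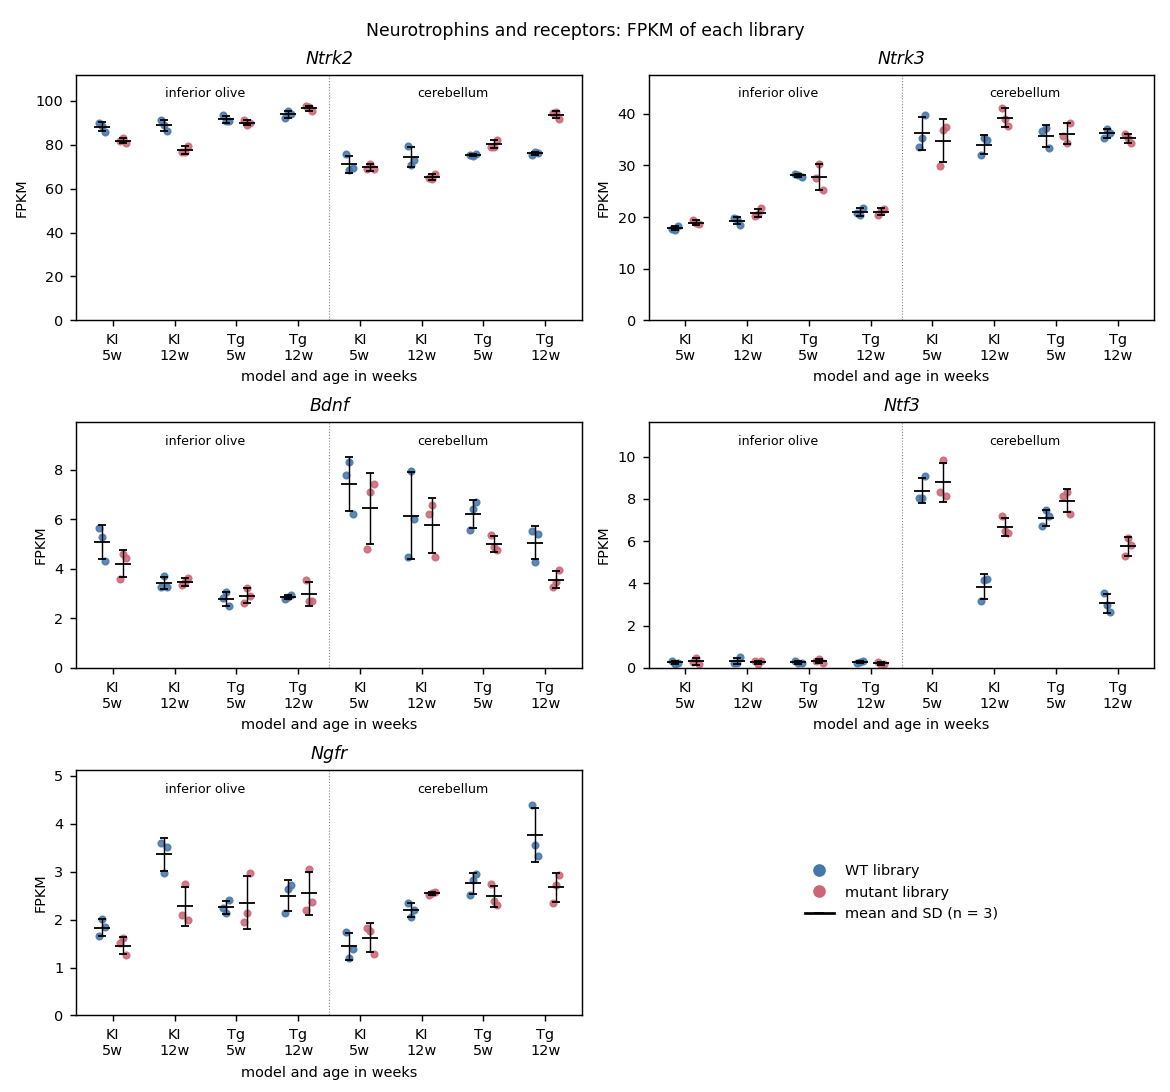
FPKM (linear axis from 0) of the 5 genes in each library, by model and age, with inferior olive left and cerebellum right of the dotted line; blue points are WT libraries, red points mutant libraries, bars the mean and SD of 3 mice. Ntf3 lies below 0.5 FPKM in every olive library, and at 12 weeks its mutant points lie above WT in the cerebellum of both models.

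The Trk receptors were the most abundant members in both tissues. In all 48 libraries Ntrk2 ranked first and Ntrk3 second, since the order Ntrk2, Ntrk3, Bdnf, Ngfr, Ntf3 held in 20 of 24 olive libraries and the other 4 only exchanged Bdnf and Ngfr. In the cerebellum Ntf3 stood above Bdnf in 16 of 24 libraries. Among genes of at least 1 FPKM in the same library, Ntrk2 lay between the 91.2 and 95.1 percentile in the cerebellum and between 92.8 and 94.6 in the olive. Ntrk3 lay between 78.4 and 84.5 in the cerebellum and between 65.2 and 79.6 in the olive.

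Ntf3 was the member with the widest gap between tissues. It was 0.155 to 0.494 FPKM over the 24 olive libraries and 2.64 to 9.86 FPKM over the 24 cerebellar ones, so that no olive library came near a cerebellar one. The WT mean was 32.5-fold higher in the cerebellum at 5 weeks and 11.8-fold higher at 12 weeks on C57BL/6J, and 26.7- and 10.5-fold higher on FVB/NJ. The median gene differed between those pairs of tables by -0.03 to 0.03 on the log2 scale. Ntf3 in the olive stayed under the 0.5 FPKM that a gene had to reach in every group to be tested, and its olive values are therefore given without a main test.

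The other members differed less between tissues. Ntrk3 in WT mice was 31.9 to 39.8 FPKM in the cerebellum and 17.4 to 28.4 FPKM in the olive, with no overlap. Ntrk2 ran the other way, at 85.9 to 95.2 FPKM in the WT olive and 68.3 to 79.5 FPKM in the WT cerebellum, again without overlap. The Ntrk2 to Ntrk3 ratio, which does not depend on the scale of a table, was 2.94 to 5.08 in olive libraries of either genotype and 1.58 to 2.69 in cerebellar ones. Bdnf in WT mice was 4.27 to 8.29 FPKM in the cerebellum and 2.50 to 5.64 FPKM in the olive, where the C57BL/6J olive at 5 weeks reached into the cerebellar range. Ngfr did not separate the tissues, at 1.65 to 3.60 FPKM in the WT olive and 1.19 to 4.40 FPKM in the WT cerebellum.

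Ordering the 8 WT groups by mean showed which neighbors could be told apart. For Ntf3, the cerebellum at 5 weeks on C57BL/6J (8.39 ± 0.609 FPKM, SD, n = 3) stood above that on FVB/NJ (7.11 ± 0.376), which stood above both cerebella at 12 weeks (3.84 ± 0.595 and 3.06 ± 0.452, ranges overlapping), and the 4 olive groups overlapped from each to the next. For Ntrk3, the 4 cerebellar groups overlapped in the same way between 34.0 and 36.2 FPKM, while the olive groups fell apart as 28.0 ± 0.364 (FVB/NJ, 5 weeks), 21.0 ± 0.761 (FVB/NJ, 12 weeks), 19.3 ± 0.738 (C57BL/6J, 12 weeks) and 17.8 ± 0.384 FPKM (C57BL/6J, 5 weeks). For Ntrk2 the only gap between neighbors lay between the tissues, and for Ngfr the highest WT means were those of the FVB/NJ cerebellum (3.76 ± 0.564 FPKM) and the C57BL/6J olive (3.36 ± 0.346 FPKM), both at 12 weeks.

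Because Ntf3 had the widest gap between tissues and the largest called changes between genotypes among the members, the sequence around its 2 annotated starts is shown, 250 bases before to 50 bases after each start, with the bases from the start on in capitals (RefSeq, GRCm38, minus strand). Both lie at the far end of the gene that the tables place at chr6:126101412-126166744 in most tables. Gene-level FPKM does not tell the starts of a gene apart.
Ntf3, chr6:126166695-126166994: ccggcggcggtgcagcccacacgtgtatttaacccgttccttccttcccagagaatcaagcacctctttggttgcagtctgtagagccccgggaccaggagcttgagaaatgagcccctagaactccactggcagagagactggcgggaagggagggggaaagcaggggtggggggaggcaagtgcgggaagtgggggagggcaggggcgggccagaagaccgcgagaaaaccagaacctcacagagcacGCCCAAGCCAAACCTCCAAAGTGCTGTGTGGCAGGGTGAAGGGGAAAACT
Ntf3, chr6:126164911-126165210: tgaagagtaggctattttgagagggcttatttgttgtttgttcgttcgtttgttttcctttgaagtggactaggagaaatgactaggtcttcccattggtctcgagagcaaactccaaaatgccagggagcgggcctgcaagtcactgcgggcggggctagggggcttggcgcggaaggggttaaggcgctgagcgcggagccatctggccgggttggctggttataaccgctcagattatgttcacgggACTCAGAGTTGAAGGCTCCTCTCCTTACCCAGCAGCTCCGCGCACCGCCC
Capicua, the repressor that forms a complex with Atxn1, binds the octamers TGAATGAA, TCAATGAA, TGAATGGA and TCAATGGA. At least 1 of them was found on either strand in 3.84% of 32851 promoter windows of the same length, and the cyclic AMP response element TGACGTCA in 1.79%. RefSeq windows were read for 4 of the 5 members (7 of Bdnf, 2 of Ntf3, 1 of Ntrk2 and 1 of Ngfr). None of these 11 windows held an exact match to any of the 5 motifs. Near matches were not counted, among them TCACGTCA, close to TGACGTCA, in the Bdnf window chr2:109692186-109692485. Ntrk3 was not searched.

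Mutants were compared with WT for each member in each table, with limma on log2(FPKM + 0.1), Benjamini-Hochberg adjusted over all genes tested and called at an adjusted p below 0.05. Of 36 such tests of members, 4 were called, 3 higher and 1 lower in mutants. They were Ntf3 in the 12-week cerebellum of both models, and Ntrk2 in the 12-week Tg cerebellum (higher) and the 12-week KI olive (lower). Bdnf, Ntrk3 and Ngfr were not called in any single table. Of all genes tested, 0.0145% and 1.49% were called in the KI olive at 5 and 12 weeks. The called share was 0.0074% and 5.58% in the KI cerebellum, 4.1% and 7.51% in the Tg cerebellum, and 0% in the Tg olive at either age. The 3 mutant libraries lay entirely above or below the 3 WT libraries for 3 of 4 members tested in the KI olive at either age, 4 of 5 in the 12-week cerebellum of each model, 2 of 5 in the 5-week Tg cerebellum, and none in the 5-week KI cerebellum or the Tg olive. Over all genes tested, 11.9% and 19.2% did so in the KI olive at 5 and 12 weeks, 9.54% and 32.1% in the KI cerebellum, 20.1% and 29.2% in the Tg cerebellum, and 12% and 7.59% in the Tg olive.

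**Figure D2:**
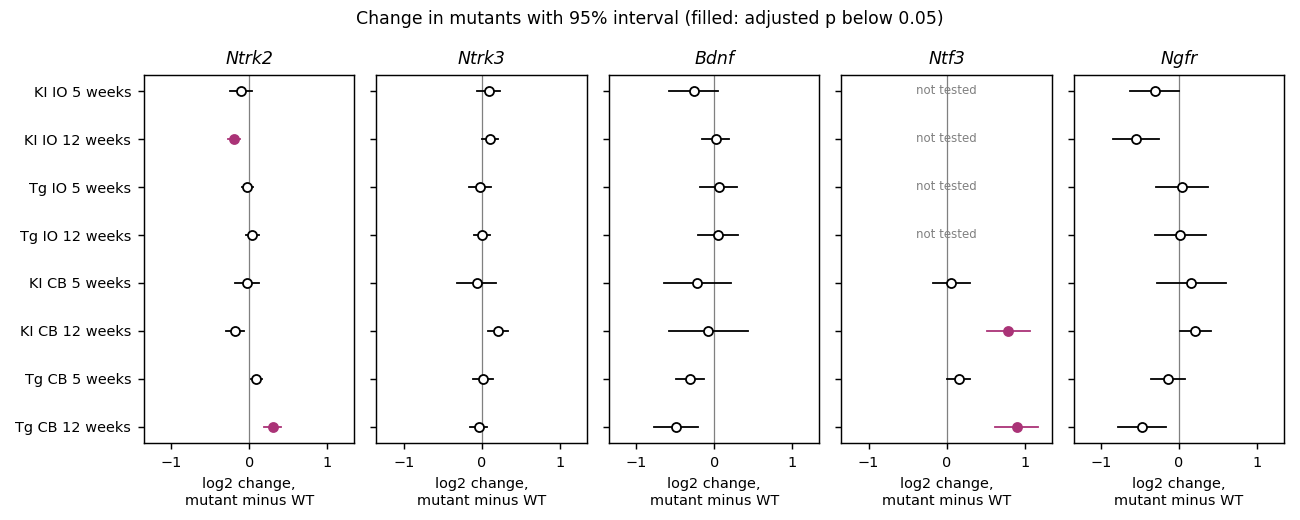
Log2 change (mutant minus WT, on the log2(FPKM + 0.1) scale) of each gene in the 8 tables, with its 95% confidence interval; filled symbols were called. The 2 Ntf3 changes of 0.79 and 0.90 in the 12-week cerebellum stand farthest from 0, and Ntrk2 is at 0.30 in the 12-week Tg and -0.18 in the 12-week KI cerebellum.

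Ntf3, the ligand of TrkC that cerebellar granule cells are known to make, rose in the mutant cerebellum at 12 weeks. In the KI table the WT libraries held 3.16, 4.18 and 4.19 FPKM and the mutants 7.17, 6.49 and 6.37 FPKM. In the Tg table the WT libraries held 3.54, 3.00 and 2.64 FPKM and the mutants 5.30, 6.16 and 5.80 FPKM. Every mutant lay above every WT library in both. The log2 change was 0.79 (SE 0.12, 95% interval 0.52 to 1.06, limma adjusted p = 0.0130) in KI, where 5.58% of 13431 genes were called, and 0.90 (SE 0.12, 0.62 to 1.17, adjusted p = 0.00406) in Tg, where 7.51% of 13641 were called. The KI call was lost when any 1 of the 3 mutant libraries was left out (adjusted p = 0.0736, 0.0628 and 0.0583 without KI replicate 1, 2 and 3), with log2 changes of 0.74 to 0.82. The Tg call held without each library in turn.

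At 5 weeks the same comparison gave no call. The KI cerebellum held 8.04, 8.03 and 9.09 FPKM in WT and 8.35, 9.86 and 8.12 FPKM in mutants, which overlapped. The Tg cerebellum held 6.71, 7.45 and 7.17 FPKM in WT and 8.15, 8.32 and 7.29 FPKM in mutants, also overlapping. The 5-week log2 changes were 0.06 (SE 0.10, 95% interval -0.17 to 0.30) in KI and 0.15 (SE 0.07, 0.0016 to 0.30, adjusted p = 0.339) in Tg. As a description across tables, the WT mean was 2.18-fold lower at 12 than at 5 weeks on C57BL/6J and 2.33-fold lower on FVB/NJ, while the mutant mean was 1.31-fold lower in KI and 1.38-fold lower in Tg. Within a library, Ntf3 stood at the 32.8 to 42.2 percentile in 5-week WT cerebella, at 13.2 to 21.6 in 12-week WT cerebella, and at 27.4 to 34.0 in 12-week mutant cerebella.

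The change of the Ntf3 difference with age was tested as an interaction and was not called in either model. The 12-week change exceeded the 5-week change by 0.73 on the log2 scale in KI (SE 0.16, 95% interval 0.37 to 1.08, limma adjusted p = 0.566) and by 0.74 in Tg (SE 0.14, 0.44 to 1.05, adjusted p = 0.0760). The comparison called 0 of 12485 genes in KI, against 889 at an unadjusted p below 0.05, and 0.0877% of 12536 in Tg. Fitted over both ages, Ntf3 was called in the Tg cerebellum (log2 change 0.52, SE 0.12, adjusted p = 0.0147, with 10.7% of genes called) and not in the KI cerebellum (0.43, SE 0.13, adjusted p = 0.120, with 2.27% called). Of the Tg olive, 0% of genes were called over both ages, against 413 at an unadjusted p below 0.05. The models did not differ detectably in the size of the 12-week change (KI minus Tg -0.11, SE 0.18, 95% interval -0.49 to 0.28).

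In the olive, Ntf3 was low in both genotypes. At 12 weeks the KI table held 0.235, 0.245 and 0.494 FPKM in WT and 0.305, 0.162 and 0.306 FPKM in mutants, and the Tg libraries and their controls 0.246, 0.293 and 0.332 FPKM in WT and 0.294, 0.155 and 0.190 FPKM in mutants. The genotypes overlapped in all 4 olive tables.

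Cell type markers moved in the same tables. Of 9 Purkinje markers, 9 fell in the 12-week Tg cerebellum (median log2 change -1.30), 9 fell in the 5-week Tg cerebellum (-0.89) and 2 fell in the 12-week KI cerebellum (-0.26), where the median of all genes was -0.02, -0.0046 and 0.01. Their summed level in the 12-week Tg cerebellum was 1385 to 1531 FPKM in mutants and 3098 to 3777 FPKM in WT. Granule cell markers, the cells named above for Ntf3, gave 3 of 8 lower and none higher in the 12-week Tg cerebellum (median -0.27), and none of 8 called in the 12-week KI cerebellum (0.17). Over the 24 cerebellar libraries, as deviations from the mean of each table, Ntf3 was set beside the list means. Pearson's r was 0.03 for granule cells, -0.68 for Purkinje cells and -0.84 for a list of inferior olive neurons. These points share tables and genotypes. The olive neuron list was also high in the cerebellum. At 12 weeks it summed to 407 to 487 FPKM in the FVB/NJ WT cerebellum and 156 to 158 FPKM in the WT olive. In the 12-week Tg cerebellum it summed to 180 to 213 FPKM. In bulk tissue, fewer cells of a type and less RNA per cell cannot be told apart, and the part of cell makeup in the Ntf3 values was not tested.

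The Ntf3 to Bdnf ratio within a library set the RNA of the 2 ligands side by side, and it is given as a description only. In the 12-week cerebellum it was 0.526 to 0.708 in C57BL/6J WT and 0.990 to 1.43 in KI, and 0.489 to 0.702 in FVB/NJ WT and 1.47 to 1.79 in Tg. In WT mice of either strain the FPKM of Ntf3 therefore lay below that of Bdnf at 12 weeks. In all Tg mutants and 2 of 3 KI mutants it lay above. At 5 weeks the ratio was 0.969 to 1.47 in C57BL/6J WT, 1.10 to 1.74 in KI, 1.07 to 1.20 in FVB/NJ WT and 1.52 to 1.71 in Tg. In the olive it never passed 0.151.

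**Figure D3:**
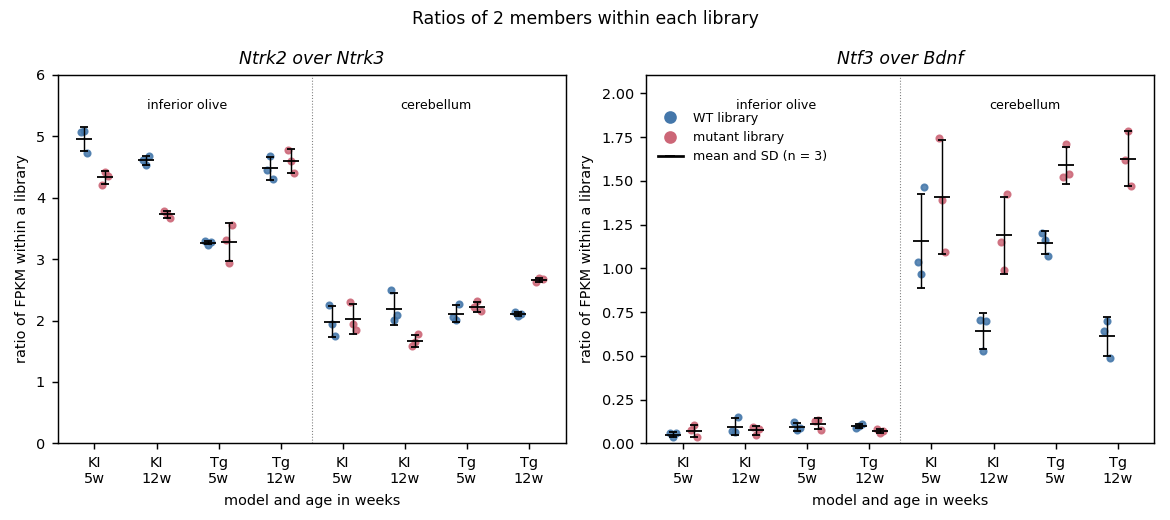
Ratios of FPKM within each library (linear axes from 0), Ntrk2 over Ntrk3 and Ntf3 over Bdnf, by model and age, with inferior olive left and cerebellum right of the dotted line; points are libraries, bars the mean and SD of 3 mice. The Ntf3 to Bdnf ratio of 12-week WT cerebella stays under 0.71, and Ntrk2 over Ntrk3 is lower in mutants than in WT in the KI olive and higher in the 12-week Tg cerebellum.

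Bdnf, the TrkB ligand, fell in the Tg cerebellum when both ages were fitted together. At 5 weeks the WT libraries held 5.57, 6.40 and 6.68 FPKM and the Tg libraries 5.36, 4.87 and 4.74 FPKM. At 12 weeks the WT libraries held 5.50, 4.27 and 5.39 FPKM and the Tg libraries 3.27, 3.45 and 3.94 FPKM. All mutants lay below all WT libraries at each age. Neither age passed alone (log2 change -0.31, SE 0.08, limma adjusted p = 0.0906, with 4.1% of 13473 genes called at 5 weeks; -0.49, SE 0.12, adjusted p = 0.0510 at 12 weeks). Fitted over both ages Bdnf fell by 0.40 (SE 0.08, 95% interval -0.57 to -0.23, adjusted p = 0.00454), and this call held without each of the 12 libraries.

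In the KI cerebellum Bdnf varied too much between mice to show a difference of that size. The 12-week WT libraries held 4.46, 7.94 and 6.01 FPKM and the mutants 6.22, 6.55 and 4.47 FPKM, and the log2 change was -0.07 with a 95% interval of -0.58 to 0.43. At 5 weeks it was -0.22 (-0.65 to 0.21). The KI and Tg changes at 12 weeks could not be told apart either (KI minus Tg 0.42, SE 0.27, -0.18 to 1.02).

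In the olive Bdnf was not called in any table. The 5-week KI olive held 5.64, 5.27 and 4.32 FPKM in WT and 3.59, 4.61 and 4.43 FPKM in mutants (log2 change -0.26, 95% interval -0.58 to 0.05), a table in which 0.0145% of 13799 genes were called. At 12 weeks the WT libraries held 3.28, 3.72 and 3.26 FPKM and the mutants 3.33, 3.45 and 3.63 FPKM, with a change of 0.02 (-0.15 to 0.19). The Tg olive lay between 2.50 and 3.53 FPKM over both genotypes and ages. The olive minus cerebellum difference of the Bdnf change in Tg was 0.37 (SE 0.14) at 5 weeks and 0.54 (SE 0.17) at 12 weeks, with limma adjusted p = 0.316 and 0.109.

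Ntrk2, the TrkB receptor of neurons and, in a truncated form without the kinase, of astrocytes, rose in the Tg cerebellum and fell in the KI olive. Its FPKM sums the forms. In the 12-week Tg cerebellum the WT libraries held 75.3, 76.5 and 76.4 FPKM and the mutants 94.6, 94.7 and 91.7 FPKM. In the 12-week KI cerebellum the WT libraries held 79.5, 70.6 and 72.8 FPKM and the mutants 65.0, 64.2 and 66.7 FPKM. Mutants lay entirely above WT in the first and entirely below in the second.

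The Tg change was 0.30 on the log2 scale (SE 0.05, 95% interval 0.20 to 0.40, limma adjusted p = 0.00750) and held without each library in turn, whereas the KI change of -0.18 (SE 0.05, adjusted p = 0.0756) was not called. The difference between them was called (KI minus Tg -0.48, SE 0.06, 95% interval -0.62 to -0.34, adjusted p = 0.00105), in a comparison that called 11.7% of 12327 genes. At 5 weeks the Tg cerebellum held 75.1, 74.996 and 75.7 FPKM in WT and 79.1, 79.1 and 82.3 FPKM in mutants, which did not overlap, with a change of 0.09 (SE 0.03, adjusted p = 0.209). Over both ages the Tg change was 0.20 (SE 0.04, adjusted p = 0.00394). The growth of the Tg change from 5 to 12 weeks, 0.21 (SE 0.05), was not called (adjusted p = 0.111).

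In the KI olive Ntrk2 was lower in mutants. At 12 weeks the WT libraries held 91.2, 89.0 and 86.3 FPKM and the mutants 76.5, 76.5 and 79.6 FPKM. At 5 weeks they held 90.0, 88.5 and 85.9 FPKM against 81.8, 82.9 and 81.0 FPKM. The genotypes did not overlap at either age. The change was -0.20 at 12 weeks (SE 0.03, 95% interval -0.28 to -0.12, limma adjusted p = 0.0394, with 1.49% of 13990 genes called), -0.11 at 5 weeks (SE 0.06, adjusted p = 0.907), and -0.15 over both ages (SE 0.03, adjusted p = 0.0435, with 1.12% of 12884 genes called). The 12-week call was lost when any 1 of its 6 libraries was left out (adjusted p = 0.0516 to 0.155), and the call over both ages without any 1 of 11 of its 12 libraries (0.0511 to 0.130), the exception being WT replicate 2 at 5 weeks (0.0189), while the change stayed between -0.22 and -0.18 and between -0.16 and -0.14.

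In the Tg olive Ntrk2 was not called, at 92.1 to 95.2 FPKM in WT and 95.1 to 97.5 FPKM in mutants at 12 weeks (log2 change 0.04, 95% interval -0.04 to 0.12). The olive minus cerebellum difference of the Tg change at 12 weeks was called (-0.26, SE 0.05, limma adjusted p = 0.00859, with 4.87% of 12373 genes called). In KI the tissues did not differ detectably in their 12-week Ntrk2 change (-0.01, 95% interval -0.15 to 0.12). Whether both tissues came from the same mice is not given in the sources used here, and these tests treat the libraries as separate. The KI minus Tg difference in the 12-week olive was -0.24 (SE 0.04, adjusted p = 0.0608, with 0.211% of 12793 genes called).

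Astrocyte markers, taken by their median, moved the way Ntrk2 did in each of these tables, and Bergmann glia markers did not in the 12-week Tg cerebellum. Of the 8 markers listed, 4 fell and none rose in the 12-week KI olive (median log2 change -0.30, summed level 637 to 648 FPKM in mutants and 761 to 846 FPKM in WT), 3 fell and none rose in the 12-week KI cerebellum (-0.27, 713 to 734 against 803 to 837 FPKM), and 3 rose and 1 fell in the 12-week Tg cerebellum (0.33, 843 to 966 against 797 to 867 FPKM). The water channel gene Aqp4, for one, changed by -0.33 (SE 0.06, adjusted p = 0.0478) in the KI olive and by -0.28 (SE 0.04, adjusted p = 0.0102) in the KI cerebellum. Slc1a3, another of the 8, overlapped between genotypes in both 12-week KI tissues. Its ratio of mutant to WT means was 1.02 in the olive and 0.994 in the cerebellum. Gfap rose by 1.02 in the Tg cerebellum (SE 0.14, adjusted p = 0.00504), and the 1 astrocyte marker that fell there was the glutamate transporter gene Slc1a3 (-0.51, SE 0.07, adjusted p = 0.00368). The 3 markers of Bergmann glia, the astrocytes that line Purkinje cells, summed there to 161 to 205 FPKM in mutants and 210 to 277 FPKM in WT, with none called (median -0.45). Of 7 leptomeningeal fibroblast markers 2 rose in the same table (median 0.52, 115 to 167 against 79.4 to 111 FPKM), and of 7 choroid plexus markers tested none was called (median 0.92, 1412 to 1884 against 585 to 1317 FPKM). Over the 24 libraries of a tissue, as deviations from the mean of each table, Ntrk2 and the mean of the list correlated with Pearson's r of 0.89 in the cerebellum and 0.79 in the olive. In the cerebellum the means of the microglia (0.86), oligodendrocyte precursor (0.84) and oligodendrocyte (0.82) lists correlated with Ntrk2 nearly as strongly. These points share tables and genotypes, and the part of astrocytes, or of the other lists, in the Ntrk2 values was not tested.

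**Figure D4:**
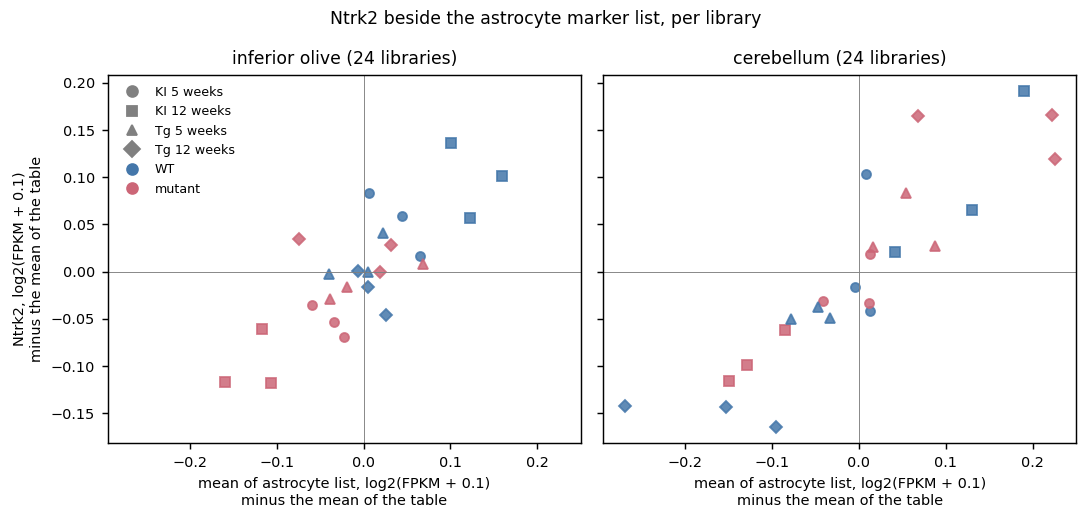
Ntrk2 (vertical) beside the mean of 8 astrocyte markers (horizontal) in each library, both as log2(FPKM + 0.1) minus the mean of the library's table; blue is WT, red is mutant, and the symbol gives model and age. In the 12-week tables of KI the mutants lie lower left, and in the 12-week Tg cerebellum they lie upper right (r = 0.79 over 24 olive and 0.89 over 24 cerebellar libraries).

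In the KI olive other lists moved too. Of 7 markers of inferior olive neurons, 4 fell at 12 weeks (median -0.30), among them Htr5b by 1.56 (SE 0.13, limma adjusted p = 0.00223). Ntrk2 correlated with the mean of this list with r = 0.82 over the 24 olive libraries. As given above, the list was also high in the cerebellum, so it does not mark olive neurons alone. The part of these neurons in the Ntrk2 values was not tested. In the 12-week cerebella oligodendrocyte markers were lower in KI (2 of 8 called, median -0.45) and higher in Tg (1 of 8 called, median 0.38). In the 12-week Tg cerebellum 2 of 5 microglia markers tested also rose (median 0.53).

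Ntrk3, the TrkC receptor, was not called in any single table. In the 12-week KI cerebellum the WT libraries held 31.9, 35.2 and 34.8 FPKM and the mutants 41.1, 39.0 and 37.5 FPKM, without overlap. The log2 change was 0.21 (SE 0.05, 95% interval 0.08 to 0.33, limma adjusted p = 0.0701). The Tg cerebellum held 35.3, 37.0 and 36.2 FPKM in WT and 36.0, 35.2 and 34.3 FPKM in mutants at 12 weeks (-0.04, -0.15 to 0.07). The difference between the models was called (KI minus Tg 0.24, SE 0.07, adjusted p = 0.0420), and this call was lost without 9 of the 12 libraries taken singly (highest adjusted p = 0.114).

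In the KI olive all Ntrk3 values of mutants lay above those of WT at each age, without a call. The 5-week libraries held 17.8, 17.4 and 18.2 FPKM in WT and 19.4, 18.7 and 18.6 FPKM in mutants, and the 12-week libraries 19.8, 19.6 and 18.5 FPKM in WT and 20.2, 20.5 and 21.6 FPKM in mutants. The change over both ages was 0.10 (SE 0.03, 95% interval 0.02 to 0.17, limma adjusted p = 0.262). In the Tg olive the changes were -0.02 (-0.16 to 0.12) at 5 weeks and 0.0049 (-0.10 to 0.11) at 12 weeks.

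In the KI olive at both ages, every mutant lay below every WT library in Ntrk2 and above it in Ntrk3. The same held in the 12-week KI cerebellum. The Ntrk2 to Ntrk3 ratio within a library therefore had to separate KI from WT there, and it is given as a description only. It was 4.72 to 5.08 in WT and 4.21 to 4.42 in mutants at 5 weeks, and 4.54 to 4.68 in WT and 3.68 to 3.79 in mutants at 12 weeks. In the 12-week cerebellum it was 2.00 to 2.49 in C57BL/6J WT against 1.58 to 1.78 in KI, and 2.07 to 2.13 in FVB/NJ WT against 2.63 to 2.69 in Tg. The ratio was lower than WT in the KI cerebellum and higher in the Tg cerebellum.

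Ngfr, the p75 receptor, was the lowest of the receptors, and at 12 weeks its KI values lay below WT in the olive and above WT in the cerebellum. In the olive the WT libraries held 3.60, 2.96 and 3.51 FPKM and the mutants 2.09, 2.73 and 1.99 FPKM. In the cerebellum the WT libraries held 2.34, 2.05 and 2.21 FPKM and the mutants 2.51, 2.55 and 2.58 FPKM. Neither pair of genotypes overlapped. The olive change was -0.55 (SE 0.13, 95% interval -0.85 to -0.25, limma adjusted p = 0.0999) and the cerebellar change 0.21 (SE 0.09, adjusted p = 0.193).

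The olive minus cerebellum difference of the Ngfr change was itself called in KI at 12 weeks (-0.76, SE 0.16, 95% interval -1.11 to -0.40, limma adjusted p = 0.0377), in a comparison that called 1.99% of 12282 genes. It was lost without any 1 of 8 of the 12 libraries (highest adjusted p = 0.106), with values between -0.89 and -0.67 over all 12. At 5 weeks the KI olive held 1.65, 2.01 and 1.84 FPKM in WT and 1.51, 1.61 and 1.26 FPKM in mutants (-0.31, SE 0.13, adjusted p = 0.827). Over both ages the olive change was -0.43 (SE 0.10, adjusted p = 0.0559).

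In the Tg cerebellum Ngfr was lower in mutants at 12 weeks, at 4.40, 3.55 and 3.33 FPKM in WT against 2.35, 2.72 and 2.94 FPKM (log2 change -0.47, SE 0.13, limma adjusted p = 0.0763), and overlapped at 5 weeks (-0.14, 95% interval -0.36 to 0.07). The change over both ages was -0.31 (SE 0.09, adjusted p = 0.0520). The KI and Tg cerebella differed in their 12-week Ngfr change (KI minus Tg 0.68, SE 0.16, 95% interval 0.33 to 1.03, adjusted p = 0.0192). In the Tg olive, Ngfr overlapped between genotypes at both ages (0.04, -0.29 to 0.36, and 0.02, -0.31 to 0.35). No gene was called in either Tg olive (0%), while 911 and 477 genes had an unadjusted p below 0.05 at 5 and 12 weeks. In the 5-week KI cerebellum, 0.0074% of 13508 genes were called and all 5 members overlapped.

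Genes of the pathway around the members were followed as 116 names in 6 groups, among them co-receptors, adaptors and induced targets. No more than 107 of them reached the level to be tested in the tables with calls. Of the tested genes, 3 fell and none rose in the 12-week KI olive, 8 fell and 3 rose of 100 in the 12-week KI cerebellum, 5 fell and none rose of 104 in the 5-week Tg cerebellum, and 9 fell and 6 rose of 104 in the 12-week Tg cerebellum. In the remaining 4 tables none was called. The median change of the list, -0.04 to 0.02 in those 4 tables with calls, stood beside -0.02 to 0.01 over all genes, and the called shares stood beside 1.49%, 5.58%, 4.1% and 7.51% of all genes.

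**Figure D5:**
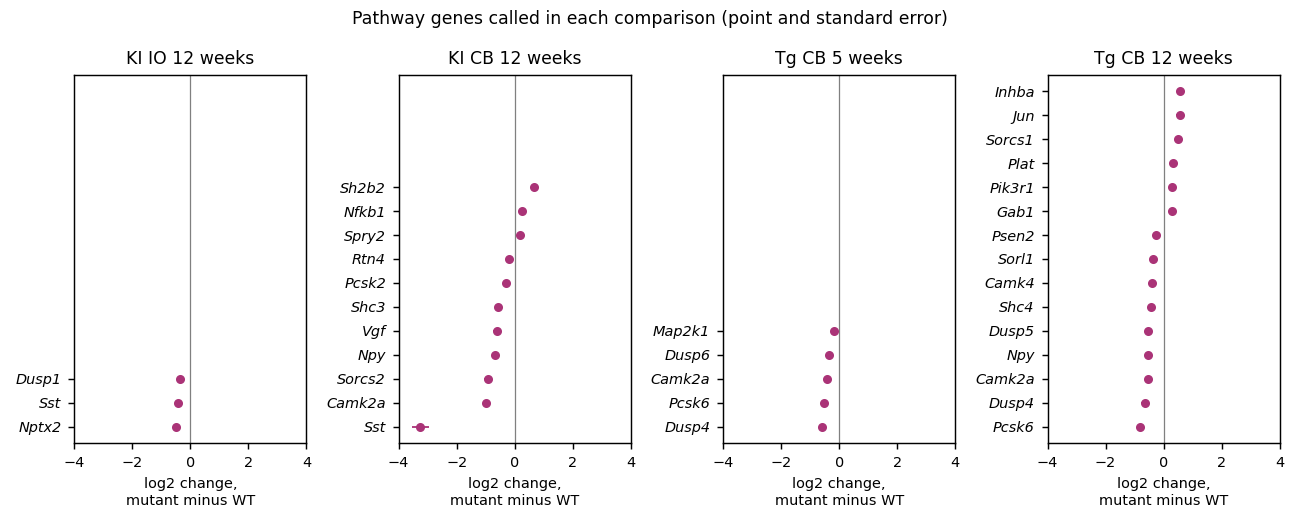
Log2 change (mutant minus WT) and its standard error of each pathway gene called, in the 4 tables with calls; IO is inferior olive and CB cerebellum. Sst in the 12-week KI cerebellum, at -3.25, lies far below the rest, which run from -0.98 to 0.67.

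Among co-receptors and enzymes that process the ligands, Sorcs2, a sortilin-family receptor that pairs with p75 for pro-neurotrophins, fell by 0.94 on the log2 scale in the 12-week KI cerebellum (SE 0.14, limma adjusted p = 0.0127). Sorcs1, of the same family, rose by 0.51 in the 12-week Tg cerebellum (SE 0.12, adjusted p = 0.0392). Pcsk6, a proprotein convertase, fell by 0.51 at 5 weeks (SE 0.04, adjusted p = 8.48e-05) and by 0.81 at 12 weeks (SE 0.09, adjusted p = 0.00160) in the Tg cerebellum. Pcsk2, a convertase of secretory granules, fell by 0.29 in the 12-week KI cerebellum (SE 0.05, adjusted p = 0.0232).

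Among adaptors and kinases downstream of the Trk receptors, Camk2a, a calcium/calmodulin kinase subunit gene, fell in 3 cerebellar tables. It fell by 0.98 in the 12-week KI cerebellum (limma adjusted p = 0.00297), 0.41 in the 5-week Tg cerebellum (adjusted p = 0.00265) and 0.55 in the 12-week Tg cerebellum (adjusted p = 0.00180). In the 12-week KI cerebellum the adaptor gene Sh2b2 rose by 0.67 (SE 0.10, adjusted p = 0.0127) and Shc3 fell by 0.56 (SE 0.10, adjusted p = 0.0197). In the 12-week Tg cerebellum the adaptor gene Shc4 and the kinase gene Camk4 fell by 0.42 and 0.39. Map2k1, which encodes the kinase that activates Erk, fell by 0.19 in the 5-week Tg cerebellum (SE 0.03, adjusted p = 0.00673). Nfkb1, a transcription factor subunit that p75 can activate, rose by 0.25 in the 12-week KI cerebellum (adjusted p = 0.0492).

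Among genes that activity or Trk signaling induces, phosphatases of the Erk pathway and neuropeptides made up most calls. Dusp4 fell by 0.58 and 0.64 in the Tg cerebellum at 5 and 12 weeks (limma adjusted p = 0.0231 and 0.0337), Dusp6 fell by 0.36 at 5 weeks (adjusted p = 0.0148) and Dusp5 by 0.52 at 12 weeks (adjusted p = 0.0379). Jun and Inhba rose there by 0.56 and 0.57 at 12 weeks (adjusted p = 0.0369 and 0.0297). Spry2 in the 12-week KI cerebellum, an inhibitor of receptor tyrosine kinase signaling, rose by 0.20 (adjusted p = 0.0407), and the secreted Vgf fell by 0.61 (adjusted p = 0.0375). The phosphatase gene Dusp1 in the 12-week KI olive fell by 0.37 (adjusted p = 0.0181), the synaptic pentraxin gene Nptx2 by 0.51 (adjusted p = 0.0203) and Sst by 0.42 (adjusted p = 0.00658).

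The neuropeptide gene Npy fell in the 12-week cerebellum of KI (by 0.67, limma adjusted p = 0.00253) and Tg (by 0.54, adjusted p = 0.00750). Sst, which encodes somatostatin, fell by 3.25 in the 12-week KI cerebellum (SE 0.31, adjusted p = 0.00275), from 48.8, 20.3 and 30.1 FPKM in WT to 3.25, 2.43 and 4.03 FPKM in mutants. Over all cerebellar libraries Sst ranged from 2.1 to 48.8 FPKM, and in the olive from 106 to 208 FPKM. Ttr of the choroid plexus, which lies against the cerebellum, was 8.86, 544 and 1664 FPKM in the same mutants and 465, 1565 and 413 FPKM in WT. The part of dissection in the Sst, Camk2a, Vgf and Npy values was not tested.

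The genes whose pattern was most like a member's were named by their Pearson correlation over the 24 libraries of a tissue, as deviations from the table mean of log2(FPKM + 0.1), among genes averaging 1 FPKM or more in each of the 4 tables. In the cerebellum they were Ccnd1, Lhfpl2 and Prrc1 for Ntf3 (r = 0.87 to 0.89), Agt, Plcl1 and Pygb for Ntrk2 (0.89 to 0.91), Tnks, Arnt and Atad2b for Ntrk3 (0.86 to 0.88), Nab1, Zdhhc5 and Spry4 for Bdnf (0.82 to 0.84), and Arhgap44, Klhl25 and Cdc42ep4 for Ngfr (0.76 to 0.83). In the olive they were Calb2, Itih3 and Cpne4 for Ntrk2 (0.89 to 0.91), Baz1b, Uhrf2 and Lgi1 for Bdnf (0.80 to 0.82), Ubash3b, Tmem8b and Arid1b for Ntrk3 (0.78 to 0.82), and Hspb8, Slc25a33 and Igfbp5 for Ngfr (0.73 to 0.78). No gene was named for a member in both tissues. Among the members themselves, Ntrk2 and Ngfr correlated with r = 0.62 in the olive and -0.53 in the cerebellum, and Ntrk2 and Bdnf with 0.27 and -0.52. The libraries share tables and genotypes, so these values describe them and carry no test.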

How the data were processed

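Poly-adenylated RNA of the dissected inferior olive and cerebellum was sequenced in 48 libraries, 3 male mice in each of 16 groups. The authors aligned reads to mm10 with TopHat2 2.1.0, quantified them with Cufflinks 2.2.1 and normalized them with Cuffnorm, and the deposited values are FPKM per gene in 8 tables of 6 libraries, each normalized separately; how the strand was treated is not given in the sources used here. Group averages and the authors' own fold changes and p-values stand in the same tables and were not used. Rows without a gene symbol were left out.

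Mutants were compared with WT in limma 3.58.1 (R 4.3.3) on log2(FPKM + 0.1), with a mean-variance trend, among genes averaging 0.5 FPKM or more in every group compared, and a gene was called at a Benjamini-Hochberg adjusted p below 0.05. A change on this scale understates that of low genes. Differences between tissues, ages and models were interaction terms over 2 tables joined by symbol. P-values rest on the residual spread between mice, 3 a group, pooled over the groups of a comparison. This spread was moderated toward the trend over all genes. The script was tested on simulated data. Total counts are unknown, so depth is given only relative to other libraries.

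The members and the gene lists were chosen with earlier results of these data known. Genes named were the members, the called genes of the pathway list (at most the 10 of largest change per table), the 3 genes most alike to each member in a tissue, and Atxn1 and Pcp2; markers and Gabra6, Htr5b, Sst and Ttr values stand beside results they touch and, like the promoter windows and the motifs, were chosen after values were seen. Where a symbol has 2 rows in a table, as Pcp2 has in 3, the row with the higher mean was read, and fits over joined tables left such symbols out. Libraries with the same replicate number deviated together (all correlations over 0.1) in 1 of 8 tables, the 12-week Tg olive (0.25, 0.11 and 0.26), where the fit with a block also called no member.

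Alternatives were another pseudocount or filter, rescaling, no trend, 1 fit over all libraries, a replicate block and leaving out each library.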

Additional observations from a re-analysis of the deposited data

Results flagged for a closer look

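The olive minus cerebellum difference of the 12-week KI change of Ngfr, -0.76 on the log2 scale (limma adjusted p = 0.0377), was noted because the change differed between tissues by its own test, with a lower mutant mean in the olive (2.27 against 3.36 FPKM) and a higher one in the cerebellum (2.55 against 2.2 FPKM). The same held for Ntrk2 in the 12-week Tg mice (-0.26, adjusted p = 0.00859), with mutant and WT means of 93.7 and 76.1 FPKM in the cerebellum and 96.5 and 93.8 FPKM in the olive. The KI change of Ngfr was called in neither tissue alone. Its tissue difference had a limma adjusted p of 0.0166 to 0.106 with 1 library left out.

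The KI and Tg cerebella at 12 weeks differed in their changes of Ntrk2 (KI minus Tg -0.48, limma adjusted p = 0.00105), Ntrk3 (0.24, adjusted p = 0.0420) and Ngfr (0.68, adjusted p = 0.0192). With 1 library left out, the Ntrk3 difference had a limma adjusted p of 0.0313 to 0.114. Mutant and WT means of Ntrk2 were 65.3 and 74.3 FPKM in KI against 93.7 and 76.1 FPKM in Tg. Those of Ntrk3 were 39.2 and 34.0 FPKM against 35.2 and 36.2 FPKM, and those of Ngfr 2.55 and 2.2 FPKM against 2.67 and 3.76 FPKM. The models differ in strain, in the mutant protein and in the cells that make it, and these cannot be told apart here. Groups of 3 were too small to test for single outlying libraries.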

How the results depend on the processing

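The 12-week Tg cerebellar calls of Ntf3 (log2 change 0.74 to 0.92, limma adjusted p = 0.00322 to 0.0184) and Ntrk2 (0.30 to 0.32, adjusted p = 2.89e-08 to 0.026) and the both-age Tg call of Bdnf held in the 8 alternatives run. The both-age Tg call of Ntf3 was lost with the replicate block (adjusted p = 0.0635, against 0.013 to 0.027 in the other 7). The number of members called changed as follows. In the 12-week KI olive it was 0, in place of 1, without a filter, without a trend and with the replicate block. In the 12-week KI cerebellum it was 3 with 1 fit over 48 libraries and 0 with the block (Ntf3 adjusted p = 0.0521), in place of 1, and in the 12-week Tg cerebellum 4 with 1 fit, in place of 2. Over both ages it was 0 with rescaling, without a trend and with the block, and 2 with 1 fit, in place of 1 in the KI olive, and 1 with 1 fit in place of 0 in the KI cerebellum. For the tissue difference it was 0 without a filter and with the block in place of 1 in KI at 12 weeks, and 2 without a filter in place of 1 in Tg, and for the model difference in the 12-week cerebellum it was 1 with the block, in place of 3. Of the pathway list, 1 rose and 5 fell in the 12-week KI cerebellum without a trend, and 3 rose in the 12-week Tg cerebellum without a filter or without a trend. The cause was not tested.

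Leaving out 1 library gave 0 to 1 members called in the 12-week KI olive, 0 to 2 in the 12-week KI cerebellum, 0 to 1 in the 5-week and 2 to 3 in the 12-week Tg cerebellum, 0 to 2 and 3 to 4 over both ages in the KI olive and Tg cerebellum, 0 to 1 and 1 to 2 for the tissue difference in KI and Tg at 12 weeks, 0 to 1 for the age difference in the Tg cerebellum, and 2 to 3 for the model difference. For uncalled changes near 0 it turned the sign, with Bdnf at -0.011 to 0.081 in the 12-week KI olive, -0.28 to 0.13 in the 12-week KI cerebellum, and -0.016 to 0.14 and -0.080 to 0.11 in the Tg olive at 5 and 12 weeks. In the 5-week KI cerebellum the ranges were -0.024 to 0.12 for Ntf3, -0.059 to 0.014 for Ntrk2 and -0.12 to 0.041 for Ntrk3. For Ntrk3 they were -0.088 to 0.042 and -0.016 to 0.034 in the Tg olive at 5 and 12 weeks and -0.033 to 0.053 in the 5-week Tg cerebellum, and for Ngfr -0.14 to 0.16 and -0.12 to 0.11 in the Tg olive. Without the Tg olive library that held cerebellar RNA, Bdnf was at -0.016 and Ntrk3 at -0.088. No called change turned its sign in any alternative.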
